A study of Mus musculus with 3 samples.

Results

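The Ms4a family is a cluster of genes for small proteins that cross the cell membrane several times. Here 10 of its members were described in primary mouse embryonic fibroblasts: Ms4a1, Ms4a2, Ms4a4a, Ms4a4b, Ms4a4c, Ms4a4d, Ms4a6b, Ms4a6c, Ms4a6d and Ms4a7. The members were selected on differences already measured between these same samples, so their ratios are given as a description, and no support is drawn from the test over all genes for them. Every probe whose transcript belonged to 1 of these genes was taken, which gave 14 of the 41174 probes on the arrays, for 9 of the 10 genes. No probe was matched to Ms4a4a. Of these 9 genes, 6 (Ms4a4b, Ms4a4d, Ms4a6b, Ms4a6c, Ms4a6d and Ms4a7) had a probe well above background in at least 1 channel on all 3 arrays, the filter used throughout, and were among the 18748 genes and transcripts tested.

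The cultures labelled SA1-null and those labelled wild type were both untreated primary fibroblasts from embryos at E12.5, grown in DMEM with 10% fetal bovine serum. SA1 belongs to cohesin, a ring of proteins that keeps sister chromatids joined and takes part in folding chromatin. On 3 Agilent 2-colour arrays, a sample labelled SA1-null in the Cy3 (green) channel was set against a sample labelled wild type in the Cy5 (red) channel, each from 1 µg of total RNA, and the labels call the 3 pairs biological replicates. The dyes were never swapped, so the effect of dye and that of genotype cannot be told apart. The labels give no allele and do not say whether the pairs came from separate embryos or litters, so every spread below is that between these 3 arrays.

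Stag1, the gene of SA1, was higher in the channel labelled SA1-null on 3 of 3 arrays, which goes against the label. Its log2 ratio was 3.34, 3.74 and 3.47 in replicates 1, 2 and 3 at its brightest probe (3.52 ± 0.21, SD, n = 3, limma adjusted p = 0.0283). A further probe gave 3.53 ± 0.35 (SD, n = 3). The remaining probes gave 2.17 ± 0.53 and 0.59 ± 0.56 (SD, n = 3). At the last, Cy5 was not well above background on any array. Each of the 4 Stag1 probes was higher on 3 of 3 arrays. Which parts of Stag1 the probes cover relative to the disrupted allele was not tested. Whether the labels of the channels were exchanged cannot be settled from these arrays, and an exchange would turn the sign of every ratio, so every direction below is that of the labelled channels. Between 60.6% and 66.0% of probes were well above background in Cy3, and between 62.0% and 67.0% in Cy5. Replicate 1 lay on 1 slide, and replicates 2 and 3 shared another. No spot was saturated, and the number of arrays, 3, limits the precision.

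Ms4a proteins sit in the outer membrane of blood cells for the most part, where several of them associate with signalling receptors. Ms4a1 is CD20, the B cell surface protein targeted by therapeutic antibodies, and Ms4a2 is the beta chain of the high-affinity IgE receptor of mast cells. Ms4a4b is known from mouse T cells, and genes of the Ms4a4, Ms4a6 and Ms4a7 group are expressed in monocytes and macrophages. In mice some members are also found in olfactory neurons, where they act as chemoreceptors.

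The sequences before the start sites are shown for the 3 lower members that had one and for Ms4a4d, which was not lower. Each line gives the 250 bases before an annotated start, 5′ to 3′ on the strand of the gene, from RefSeq on GRCm38.p6. Capitals mark GGAAGT, a core recognised by transcription factors of the ETS family, or its reverse complement ACTTCC. This motif was chosen after the sequences had been read. The windows are chr19:11336147-11336396 on the minus strand for Ms4a7, chr19:11518309-11518558 on the plus strand for Ms4a6b, chr19:11469118-11469367 on the plus strand for Ms4a6c and chr19:11536544-11536793 on the plus strand for Ms4a4d.
Ms4a7: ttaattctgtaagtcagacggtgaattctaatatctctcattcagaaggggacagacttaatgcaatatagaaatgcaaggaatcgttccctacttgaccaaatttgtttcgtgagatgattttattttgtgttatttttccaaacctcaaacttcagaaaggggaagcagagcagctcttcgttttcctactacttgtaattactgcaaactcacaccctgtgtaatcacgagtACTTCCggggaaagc
Ms4a6b: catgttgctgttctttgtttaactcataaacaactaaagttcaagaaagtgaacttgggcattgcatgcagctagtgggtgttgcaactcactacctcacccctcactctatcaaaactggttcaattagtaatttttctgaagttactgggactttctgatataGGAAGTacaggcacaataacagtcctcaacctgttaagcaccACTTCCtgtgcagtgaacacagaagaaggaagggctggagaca
Ms4a6c: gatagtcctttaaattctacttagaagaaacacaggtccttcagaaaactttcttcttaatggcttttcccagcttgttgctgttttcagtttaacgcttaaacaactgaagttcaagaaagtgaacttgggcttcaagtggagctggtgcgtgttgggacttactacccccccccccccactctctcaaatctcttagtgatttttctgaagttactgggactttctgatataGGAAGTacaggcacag
Ms4a4d: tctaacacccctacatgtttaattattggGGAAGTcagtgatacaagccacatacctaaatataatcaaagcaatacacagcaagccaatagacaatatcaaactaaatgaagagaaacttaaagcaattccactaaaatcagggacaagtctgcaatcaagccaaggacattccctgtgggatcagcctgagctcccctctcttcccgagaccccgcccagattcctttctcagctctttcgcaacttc

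Ms4a6b and Ms4a6c shared an exact run of 48 bases that holds a GGAAGT. It lies 118 to 71 bases before the start of Ms4a6b, and 49 to 2 bases before that of Ms4a6c.
Shared run: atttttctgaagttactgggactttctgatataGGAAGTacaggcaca
The pair shared a further exact run of 24 bases, and over the full windows a global alignment gave 47.4% identity. This identity was no higher than that of most other pairs, among them Ms4a2 and Ms4a6b at 53.1%. Ms4a4b and Ms4a4c, of which neither is printed, had the highest identity of any pair at 70.8%, and their longest exact run was 20 bases. The sequences of 9 windows from 8 members were available, Ms4a7 having 2 annotated starts. The motif GGAAGT, on either strand, was in 6 of the 9 windows and in 19.7% of 32851 mouse windows of the same length. It stood in windows of Ms4a4b, Ms4a4c and Ms4a4d as well as in those of Ms4a6b, Ms4a6c and the upstream start of Ms4a7. Ms4a6b held 2 matches. The place of the match differed: it ended 10 bases before the start in Ms4a7, 11 bases before it in Ms4a6c, and began 221 bases before it in Ms4a4d. The letters GAGGAA, the core bound by the blood cell factor PU.1, were in 2 of the 9 windows (Ms4a4b and Ms4a4c), and in 23.3% of all windows. The AP-1 motif TGANTCA was in 1 window, that of the second start of Ms4a7, and in 6.7% of all windows. The letters TTGCNNAA, an element of C/EBP factors, were in the window of Ms4a4d and in 9.6% of all windows, and TATAAA was in that of Ms4a4b and in 12.4% of all windows. Both strands were searched each time, and the GAGGAA and GGAAGT motifs can overlap. A match is a description of letters and not of binding.

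Ms4a7 is known in mice from tissue macrophages. Spot signals at its first probe, before normalization, were 1159, 220 and 209.5 in the channel labelled SA1-null for replicates 1, 2 and 3, against 31902, 3689 and 2469 in the channel labelled wild type. On each array the SA1-null signal was the smaller, before any correction for the difference between the dyes. Background correction and loess normalization, which removes the intensity-dependent difference between the dyes, gave log2 ratios of -3.03, -2.96 and -3.37, a mean of -3.12 ± 0.22 (SD, n = 3). The level labelled wild type was thus 8.69-fold that labelled SA1-null. At the second probe the signals were 941, 177.5 and 163 in the channel labelled SA1-null, against 22846, 2567 and 1673 in the channel labelled wild type. That probe gave -2.85, -2.69 and -3.12, a mean of -2.89 ± 0.21 (SD, n = 3), or 7.40-fold. The ratio at the first probe was below that at the second on each array, by 0.18, 0.26 and 0.25 on the log2 scale. The probes thus differed in the same direction and by a similar amount on every array. Of the members that were lower, Ms4a7 varied least between arrays.

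Ms4a6b, which is expressed in T cells and myeloid cells, had the lowest mean log2 ratio of the family. Its signal was 92.5, 80 and 71 in the channel labelled SA1-null, against 13571, 1529 and 1015 in the channel labelled wild type. In the channel labelled SA1-null it was 3.56, 2.29 and 2.96 times the local background, and in the channel labelled wild type 203, 30.6 and 21.1 times. The log2 ratio was -5.19, -3.01 and -3.30, a mean of -3.83 ± 1.18 (SD, n = 3), which is 14.3-fold higher in the channel labelled wild type. Replicate 1 stood apart from the other two: without it, on the slide that held replicates 2 and 3, the mean was -3.16. The signal labelled SA1-null lay near background, and the ratio moved with the offset of the background correction: with no offset it was -4.60.

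Ms4a6d has been described in mouse macrophages with the complement receptor Vsig4. Its signal was 197, 68.5 and 71 in the channel labelled SA1-null, against 9150, 1059 and 582 in the channel labelled wild type. The log2 ratio was -3.69, -2.54 and -2.51, a mean of -2.91 ± 0.67 (SD, n = 3), or 7.54-fold, and the slide with replicates 2 and 3 gave -2.53. Ms4a6c, a gene of monocytes, had signals of 153.5, 77 and 74 in the channel labelled SA1-null, against 5021, 696 and 476 in the channel labelled wild type. Its log2 ratio was -3.17, -1.91 and -2.18, a mean of -2.42 ± 0.66 (SD, n = 3), or 5.36-fold, and replicates 2 and 3 gave -2.05. For Ms4a6b, Ms4a6c and Ms4a6d alike the ratio was lowest in replicate 1, which Ms4a7 did not share. The 4 genes were well above background in both channels on 3 of 3 arrays.

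**Figure D1:**
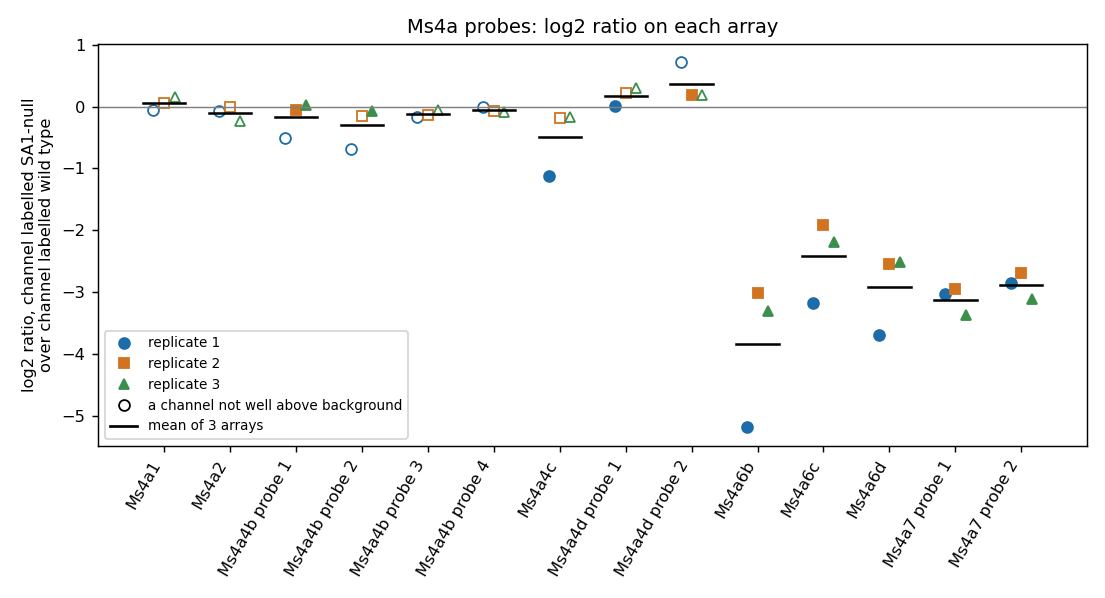
Log2 ratio, SA1-null over wild type as labelled (vertical axis), at each of the 14 Ms4a probes, with a point for each of 3 arrays and a bar at their mean; open points mark a spot where a channel was not well above background. The 5 probes of Ms4a6b, Ms4a6c, Ms4a6d and Ms4a7 lie between -1.91 and -5.19, and the other 9 between -1.13 and 0.72.

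The Ms4a4 genes lay near background in both channels. Ms4a4b had 4 probes. At the brightest, the signal was 37, 57.5 and 81 in the channel labelled SA1-null, against 179, 119.5 and 109 in the channel labelled wild type, and the log2 ratio was -0.50, -0.05 and 0.03 (-0.17 ± 0.29, SD, n = 3). The mean was smaller than the spread between arrays, and the arrays differed in direction. The second probe gave -0.31 ± 0.34 (SD, n = 3). The other two were not well above background in either channel on any array.

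Ms4a4d was the only tested member above 0 on 3 of 3 arrays. At its brighter probe the signal was 43, 44 and 45.5 in the channel labelled SA1-null, against 127, 67 and 59.5 in the channel labelled wild type. The log2 ratio was 0.01, 0.22 and 0.30 (0.17 ± 0.15, SD, n = 3), and the second probe gave 0.72, 0.19 and 0.19 (0.37 ± 0.30, SD, n = 3). Both probes were well above background on 3 of 3 arrays in the channel labelled SA1-null, but on 1 of 3 in the channel labelled wild type. Before normalization the signal was the smaller in Cy3 on each array. The local background there was 22, 29 and 29 in Cy3, against 57, 51 and 56 in Cy5. The raw signals and the normalized ratio thus differed in direction. The mean ratio was also above 0 with no background subtraction (0.19) and with median centring in place of loess (0.26).

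The remaining members did not pass the filter. Ms4a4c, an interferon-induced gene of mouse leukocytes, was well above background on 1 of 3 arrays in the channel labelled SA1-null and on 2 of 3 in the channel labelled wild type. Its log2 ratio was -1.13, -0.18 and -0.17 (-0.49 ± 0.55, SD, n = 3), so that the value rests on replicate 1, where the signal was 42.5 in the channel labelled SA1-null, against 327 in the channel labelled wild type. Ms4a2 was not well above background on any array in the channel labelled SA1-null and was so on 1 of 3 in the channel labelled wild type. Its log2 ratio was -0.08, -0.01 and -0.24 (-0.11 ± 0.12, SD, n = 3), and rests mostly on signals that were not well above background. Ms4a1 was not well above background in either channel on any array.

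**Figure D2:**
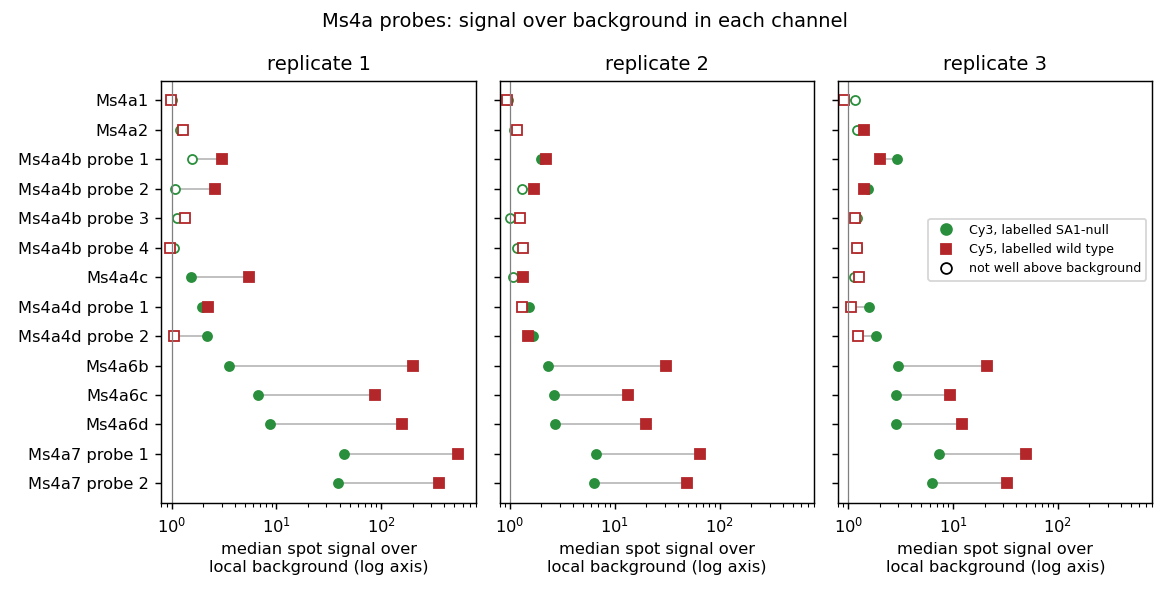
Median spot signal over local background (horizontal log axes, no unit) at the 14 Ms4a probes on each of 3 arrays, with circles for Cy3, labelled SA1-null, and squares for Cy5, labelled wild type; open symbols were not well above background. Ms4a7 probe 1 stood 44.6, 6.67 and 7.35 times over its Cy3 background and 541, 64.7 and 49.4 times over its Cy5 background, while the Ms4a1, Ms4a2 and Ms4a4 probes reached at most 5.50 times.

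Over the 6 members tested, the median log2 ratio was -2.67, and it was -3.10, -2.23 and -2.35 on the 3 arrays. Over all 18748 genes the median was -0.02, and 90% of genes lay between -0.74 and 0.46. Below 0 on all 3 arrays were 4 of the 6 members and 19.0% of all genes. Above 0 on all 3 arrays were 1 of the 6 and 13.2% of all genes. In the limma fit over all genes, 1 member, Ms4a7, passed a Benjamini-Hochberg adjusted p of 0.05 as lower, beside 0.272% of all genes (51), and 0 passed as higher, beside 0.0107% (2). At an unadjusted p of 0.05, 4 members were lower and 0 higher, beside 1392 of the 18748 genes in either direction. Because the members were selected on this contrast, nothing is read from these counts. They also moved with single arrays: 4 members passed without replicate 1, beside 285 of all genes. Without replicate 2 or without replicate 3, 0 members passed, and no gene did. Ordered by ratio from the lowest of all genes, Ms4a6b was at place 3, Ms4a7 at 16, Ms4a6d at 30, Ms4a6c at 81, Ms4a4b at 5316 and Ms4a4d at 14819. The order among the 4 lower members is not settled by 3 arrays. The ratio of Ms4a6b minus that of Ms4a7 was -2.15, -0.06 and 0.07 on the 3 arrays, and that of Ms4a6d minus Ms4a7 was -0.66, 0.41 and 0.86. That of Ms4a6c minus Ms4a7 was -0.14, 1.04 and 1.19.

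By gene order in RefSeq, the members lie together on chromosome 19 in the order Ms4a7, Ms4a4a, Ms4a4c, Ms4a4b, Ms4a6c, Ms4a6b, Ms4a4d, Ms4a6d and Ms4a2, with Ms4a1 apart among other Ms4a genes. Of the tested members that were not lower, Ms4a4b lay between Ms4a7 and Ms4a6c, and Ms4a4d between Ms4a6b and Ms4a6d. Both were near background, where a much lower ratio could not be seen. Ms4a4a and Ms4a4c, between Ms4a7 and Ms4a4b, were not tested. No pattern along the cluster is therefore read from this order. Of the 21 protein-coding genes inside the cluster or among the nearest 10 on each side, 13 were tested. None passed the limma test (0 lower and 0 higher), 1 had an unadjusted p under 0.05, and their median log2 ratio was -0.03. That gene was Slc15a3, which encodes a lysosomal transporter of histidine and peptides found in immune cells, at -2.75, -1.88 and -1.79 (-2.14 ± 0.53, SD, n = 3, limma adjusted p = 0.0798). Without replicate 1 it passed. Next by p came the splicing factor gene Prpf19 at 0.41 ± 0.33 (SD, n = 3, limma adjusted p = 0.708) and the mitochondrial ribosomal gene Mrpl16 at -0.40 ± 0.42 (SD, n = 3, limma adjusted p = 0.712). Cd5, the gene of a T cell surface receptor, was at -0.19 ± 0.14 (SD, n = 3, limma adjusted p = 0.750).

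**Figure D3:**
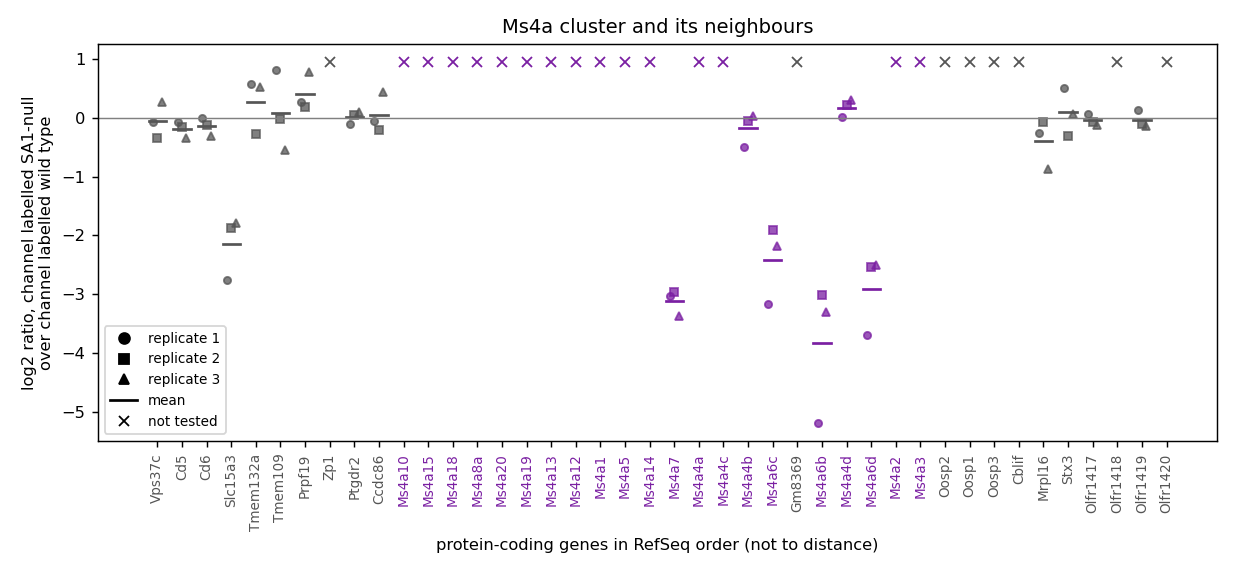
Log2 ratio, SA1-null over wild type as labelled (vertical axis), for the protein-coding genes of the Ms4a cluster (purple) and the 10 nearest on each side (grey), in RefSeq order and not to distance; points are the 3 arrays, bars their mean, and crosses genes that were not tested. Ms4a7, Ms4a6c, Ms4a6b, Ms4a6d and Slc15a3 have means of -2.14 or below, and the other 14 tested genes lie between -0.40 and 0.41.

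Of 11 other relatives, 9 of them Ms4a genes and the others the related Tmem176a and Tmem176b, 7 had a probe. Ms4a3, Ms4a5, Ms4a8a, Ms4a10 and Ms4a13 did not pass the filter, and Ms4a3, Ms4a8a and Ms4a13 were not well above background in either channel on any array. Tmem176a and Tmem176b, membrane proteins of dendritic cells and macrophages, were well above background in both channels. Their arrays pointed in different directions. Tmem176a was at -2.24, -0.10 and 0.89 (-0.48 ± 1.60, SD, n = 3, limma adjusted p = 0.854), and Tmem176b at -2.52, -0.30 and 0.83 (-0.66 ± 1.70, SD, n = 3, limma adjusted p = 0.806).

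Of 15 genes whose proteins are known to bind or work with Ms4a proteins, 9 were tested, 3 passed as lower and 0 as higher, and the median was -0.78. By array it was -1.92, -0.40 and -0.51, and leaving out replicate 1 gave -0.22. Tyrobp, the signalling adaptor of myeloid receptors, was at -3.15 ± 0.15 (SD, n = 3, limma adjusted p = 0.0283). Trem2, a lipid receptor that signals through Tyrobp, was at -3.07 ± 0.48 (SD, n = 3, limma adjusted p = 0.0326). The other Trem2 probe gave -2.19. Fcer1g, the gamma chain that Fc receptors share, was at -2.74 ± 0.50 (SD, n = 3, limma adjusted p = 0.0451). Lyn, a kinase that phosphorylates the IgE receptor, was at -3.48, -1.11 and -0.77 (-1.78 ± 1.48, SD, n = 3, limma adjusted p = 0.613). Fcer1a, the IgE-binding chain that pairs with Ms4a2, was at 0.00 ± 0.10 (SD, n = 3, limma adjusted p = 0.997). It was well above background on only 1 of 3 arrays in the channel labelled SA1-null. Tnfrsf18, which associates with Ms4a4b in mouse T cells, was at -0.34 ± 0.51 (SD, n = 3, limma adjusted p = 0.731). Vsig4 and the B cell genes Cd79a, Cd79b and Cd22 did not pass the filter. The genes that passed were not listed as partners of the lower members. Tyrobp and Trem2 were listed with Ms4a4a, which had no probe, and Fcer1g with Ms4a2, which did not pass the filter. Of the lower members only Ms4a6d had a listed partner, Vsig4. Without replicate 2, or without replicate 3, 0 of the 9 passed.

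Ms4a7, the member with the highest intensity, was set against every other tested gene with a symbol by the Euclidean distance of the 3 log2 ratios. The nearest were Tyrobp at a distance of 0.17, Bcl2a1b at 0.44, Hcls1 at 0.46, Ptprc at 0.47 and Cd300c2 at 0.48. Their mean log2 ratios were -3.15, -3.06, -3.05, -2.92 and -2.87. Bcl2a1b encodes a relative of the survival factor Bcl2, Hcls1 an actin regulator of blood cells, Ptprc CD45, the phosphatase on all nucleated blood cells, and Cd300c2 a surface receptor of myeloid cells. Among the members, the nearest to Ms4a7 was Ms4a6d at 1.16. Ms4a6c and Ms4a6d lay 0.88 apart.

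Macrophage markers were set beside the members. Of 15 markers, 14 had a probe and 13 were tested, and the ratios of all 13 were negative on every array, around a median of -2.86. Of the list's 19 probes, 15 were well above background on 3 of 3 arrays in the channel labelled SA1-null, and 18 in the channel labelled wild type; Cd163 was so in neither. Passing as lower were 4, and 0 passed as higher: Tyrobp, the lysozyme gene Lyz2 at -2.79 ± 0.32 (SD, n = 3, limma adjusted p = 0.0283), the complement gene C1qc at -2.86 ± 0.49 (SD, n = 3, limma adjusted p = 0.0413) and the endotoxin co-receptor gene Cd14 at -1.97 ± 0.22 (SD, n = 3, limma adjusted p = 0.0420). Without replicate 1, 11 of the 13 passed, beside 285 of all genes, and without replicate 2 or without replicate 3, 0 did. The defining markers Csf1r, at -2.89 ± 0.75 (SD, n = 3, limma adjusted p = 0.0716), and Adgre1, at -3.20 ± 0.93 (SD, n = 3, limma adjusted p = 0.0845), were well above background in both channels. The signals summed over the list's probes, background subtracted and before normalization, were 9655 to 28165 in the channel labelled SA1-null, against 190882 to 1025430 in the channel labelled wild type. Against the median of the macrophage list on the same array, Ms4a6d differed by -0.28, -0.09 and -0.07, Ms4a6b by -1.77, -0.56 and -0.86, Ms4a7 by 0.38, -0.50 and -0.93, and Ms4a6c by 0.24, 0.54 and 0.26. In bulk RNA, fewer cells of a type and less RNA per cell cannot be told apart, and the part of macrophages in the members' ratios was not tested.

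The labelled cell type was checked on 14 fibroblast markers, whose 25 probes were all well above background in both channels on 3 of 3 arrays. Vim was not tested. Of the 13 tested, 0 passed as lower or higher in limma, 6 had an unadjusted p under 0.05 as higher, and the median was 0.71. With the slide in the fit the list's median was 0.81. Replicate 1 was the only array on its slide, so no count of passing genes is read from that fit. Under median centring in place of loess the list's median was 0.27, with that of all genes at -0.29, and 1 had an unadjusted p under 0.05. Without replicate 3 the number at that unadjusted p was 3, and without replicate 1 the list's median was 0.49. The 4 with the smallest p were the PDGF receptor genes Pdgfrb at 0.85 ± 0.19 (SD, n = 3, limma adjusted p = 0.258) and Pdgfra at 0.79 ± 0.11 (SD, n = 3, limma adjusted p = 0.262), and the collagen genes Col3a1 at 1.17 ± 0.60 (SD, n = 3, limma adjusted p = 0.391) and Col6a1 at 1.64 ± 0.98 (SD, n = 3, limma adjusted p = 0.423). The second probes of Pdgfra and Col3a1 gave 0.19 ± 0.34 and 0.59 ± 0.84 (SD, n = 3), each below 0 in replicate 3. Before normalization, the signals summed over the whole fibroblast list were 317321 to 585844 in the channel labelled SA1-null. In the channel labelled wild type they were 502830 to 1066160. On the same array, the sum labelled SA1-null was 0.55, 0.49 and 1.13 times that labelled wild type in replicates 1, 2 and 3. In replicates 1 and 2 this ran opposite to the normalized median of 0.71.

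Markers of the cell types for which Ms4a1, Ms4a2 and Ms4a4b are known were mostly below the filter. Of 8 B cell markers 4 were tested and 0 passed (1 with an unadjusted p under 0.05 in limma), and Cd79a, Cd79b, Pax5 and Cd22 were not among the tested. Blnk, an adaptor of the B cell receptor that is also expressed in macrophages, was at -2.77 ± 0.85 (SD, n = 3, limma adjusted p = 0.0958), and Ebf1, which is also active in stromal cells, at 1.43 ± 1.53 (SD, n = 3, limma adjusted p = 0.691). Without replicate 1, Blnk passed as lower. Of 8 T cell markers 4 were tested, of 8 mast cell markers 2, of 7 dendritic cell markers 3 and of 7 neutrophil markers 1. None of these passed (0 of them had an unadjusted p under 0.05 in limma), and the list medians were -0.19, 0.10, -0.05 and 0.05 in that order. The mast cell genes Kit, Cpa3, Tpsb2, Cma1 and Hdc did not pass the filter, nor did the neutrophil genes S100a8 and S100a9. The B cell, T cell and partner lists share genes with others, among them Tyrobp, Fcer1a, Cd5 and Thy1.

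**Figure D4:**
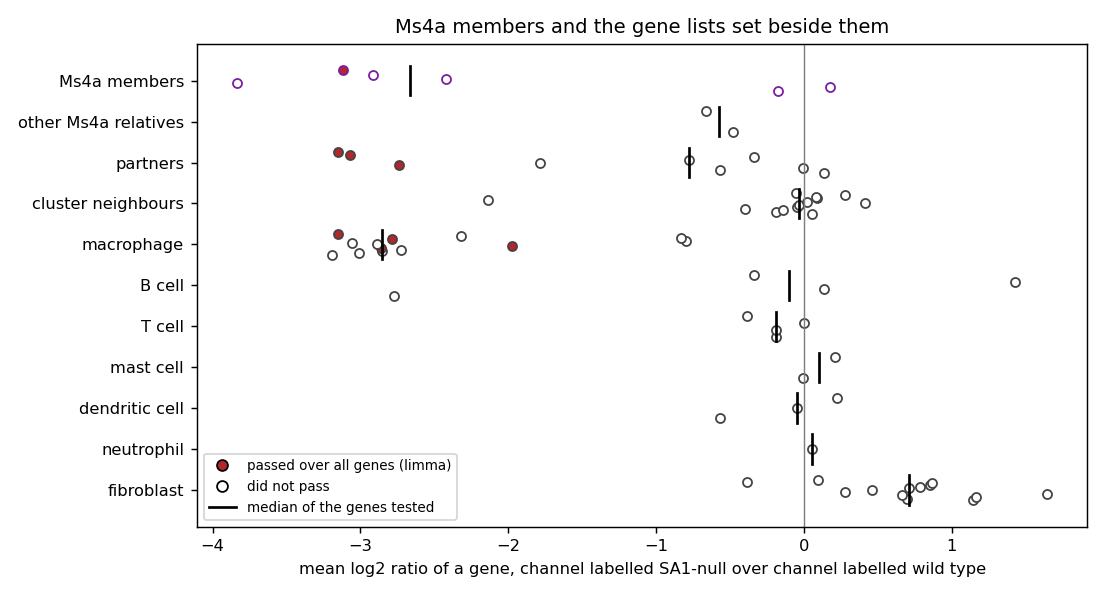
Mean log2 ratio of each tested gene (horizontal axis), SA1-null over wild type as labelled, for the Ms4a members and 10 gene lists; filled points passed limma over all genes, and bars are medians; the height of a point within its row has no meaning. The median was -2.67 for the 6 Ms4a members and -2.86 for the 13 macrophage markers, against 0.71 for the 13 fibroblast markers and values between -0.78 and 0.10 for the other lists.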

How the data were processed

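Per the file headers, the deposited scanner files hold median spot and background intensity for each dye, and a log10 ratio of processed Cy5 over Cy3, made by Agilent Feature Extraction 10.1.1.1 (replicate 1) or 10.7.3.1 (replicates 2 and 3). The deposited log2 values run as Cy5 over Cy3, since they correlated at 0.982 to 0.997 with that ratio computed here; limma is named in the submitters' processing notes, and no source used here gives their other steps. Their medians were -0.02, -0.02 and -0.01.

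Here, median signals were corrected with normexp (offset 50) and loess-normalized array by array (limma 3.58.1, R 4.3.3). The offset draws the ratios of dim probes toward 0. Control spots and 116, 125 and 207 flagged spots were left out. A probe was kept if well above background in at least 1 channel on all 3 arrays (24349 probes), and a gene took its brightest kept probe. Symbols came from transcripts of RefSeq GRCm38.p6, matched by 23374 probes. Ratios are Cy3 over Cy5, tested against 0 with lmFit and eBayes and adjusted by Benjamini-Hochberg over all genes at 0.05. Design alternatives are listed with their effect further on. The plots were drawn with matplotlib 3.10.9, and sequences were aligned with Biopython 1.88.

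The members and gene lists were chosen with earlier results of these data known. Named were every member, with values for probes above background in at least 1 spot, Stag1, the 5 genes nearest to Ms4a7 and, of each list, up to 4 genes with the smallest p (Fcer1a as 1 of 2 mast cell markers tested); Tnfrsf18, Csf1r and Adgre1 were named for their role, after their values were seen. Probe and protein sequences were not used here.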

Additional observations from a re-analysis of the deposited data

How the results depend on the processing

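Each of the 6 tested members kept the sign of its log2 ratio in every alternative run on it (13 or 14 each). Ms4a7 ranged from -3.48 to -2.99, Ms4a6b from -4.77 to -3.16, Ms4a6d from -3.70 to -2.53, Ms4a6c from -3.10 to -2.05, Ms4a4b from -0.50 to -0.01 and Ms4a4d from 0.11 to 0.78. The members' median was -3.15 with an offset of 0, -3.21 with Feature Extraction's processed signals and -0.49 with no filter on dim probes, which adds 3 dim members. The numbers of genes and of members that passed were 118 and 4 with no background subtraction, 264 and 4 with an offset of 0, 320 and 4 with the processed signals, 158 and 4 with scale normalization, 92 and 2 for probes above background in both channels, 112 and 4 with an intensity trend, and 1805 and 4 with slide as a term. Under median centring 30 genes passed, and the median of all genes moved to -0.29. Tested one by one, 70 of all kept probes passed, among them 2 member probes, both of Ms4a7. At an adjusted p of 0.1, 132 genes passed. With no filter 0 genes and 0 members passed (1982 genes at an unadjusted p of 0.05). Leaving out a replicate gave 0 to 285 genes and 0 to 4 members; both counts were 0 without replicate 2 (1290 genes at an unadjusted p of 0.05) and without replicate 3 (741), and at their highest without replicate 1. With slide as a term, the spread came from replicates 2 and 3 alone, since replicate 1 was the only array on its slide. The causes of these changes were not tested. The deposited values (50 genes) and the mean of a gene's probes (48) stayed within 1.5 times the 53 genes reported. No paired analysis was possible beyond the ratio itself because both labels of a replicate share an array, so each ratio is already a pair. Dim signals in the channel labelled SA1-null limit the ratios of Ms4a6b, Ms4a6c and Ms4a6d, and those of the Ms4a4 genes are limited in both channels.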
